A study of Mus musculus with 16 samples.

Results

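H3K27ac islands, stretches of chromatin enriched for acetylated lysine 27 of histone H3, were compared between Setd5+/- and wild-type mouse neural stem cells. The members were all H3K27ac islands on the 19 autosomes, 17224 in Setd5+/- cells and 18311 in wild type, 35535 of the 213103 islands that the 13 deposited lists hold. Chromosomes 1, 4 and 15 were kept apart, which left 12585 Setd5+/- and 15064 wild-type islands on the 16 other autosomes. A Setd5+/- island with no wild-type island overlapping it by 1 bp was called gained, a wild-type island with no Setd5+/- island over it was called lost, and all others were called shared.

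Both groups were neural stem cells taken from the cortex of the telencephalon of E14.5 embryos and grown as neurospheres with bFGF and EGF. The first group was heterozygous for a Setd5 mutation (Setd5+/-) and the second was wild type, and no allele, strain or number of embryos behind the cells is given in the sources used here. Cells were moved to Matrigel-coated plates, fixed in 1% formaldehyde and immunoprecipitated, and libraries of 14 PCR cycles were read as single 50-bp reads. Each group has 1 library and no replicate, so every difference below compares 2 libraries and carries no p-value, and no difference could be set against the spread between replicates.

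Acetylation of lysine 27 is written mainly by the p300 and CBP acetyltransferases and erased by histone deacetylases, and it marks promoters and enhancers in use. H3K4me3 lies at active and poised promoters, whereas H3K4me1 without H3K4me3 is typical of enhancers. The same lysine 27 carries instead a trimethyl group, H3K27me3, where Polycomb complexes hold developmental genes silent. SETD5 is a SET-domain protein that the series title calls a methyltransferase of H3 lysine 36, and it is known to associate with the NCoR-HDAC3 corepressor.

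The starts of 6 genes illustrate the sequences behind the promoter comparison, since an H3K27ac island lay within 1 kb of each in only 1 genotype. The first 3 carried the island in Setd5+/- cells, at Dusp5 (chr19:53528895-53529194, plus strand), Hoxa3 (chr6:52213018-52213317, minus strand) and Nrarp (chr2:25180508-25180807, plus strand). The next 3 carried it in wild type, at Dll1 (chr17:15375774-15376073, minus strand), Axin2 (chr11:108920099-108920398, plus strand) and Aldh1l1 (chr6:90550543-90550842, plus strand). Sequences are from RefSeq (GRCm38.p6), 250 bases before to 50 bases after the start, and capitals mark CpG dinucleotides.
Dusp5: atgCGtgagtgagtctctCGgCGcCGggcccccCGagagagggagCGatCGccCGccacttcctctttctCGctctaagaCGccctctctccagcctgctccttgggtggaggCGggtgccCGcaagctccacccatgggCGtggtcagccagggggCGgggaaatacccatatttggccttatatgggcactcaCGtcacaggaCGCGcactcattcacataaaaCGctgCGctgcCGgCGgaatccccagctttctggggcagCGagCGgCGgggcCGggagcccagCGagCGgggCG
Hoxa3: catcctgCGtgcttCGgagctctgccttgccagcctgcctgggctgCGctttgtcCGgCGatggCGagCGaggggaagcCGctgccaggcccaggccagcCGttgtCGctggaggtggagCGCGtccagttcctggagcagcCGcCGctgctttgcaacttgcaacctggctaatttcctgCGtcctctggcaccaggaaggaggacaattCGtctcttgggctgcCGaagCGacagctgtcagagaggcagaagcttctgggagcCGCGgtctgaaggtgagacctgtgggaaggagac
Nrarp: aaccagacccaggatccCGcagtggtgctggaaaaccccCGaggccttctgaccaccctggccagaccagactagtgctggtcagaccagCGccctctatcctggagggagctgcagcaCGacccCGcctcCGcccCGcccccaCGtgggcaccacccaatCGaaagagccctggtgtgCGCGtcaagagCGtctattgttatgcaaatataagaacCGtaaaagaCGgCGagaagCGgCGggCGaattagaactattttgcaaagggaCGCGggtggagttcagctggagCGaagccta
Dll1: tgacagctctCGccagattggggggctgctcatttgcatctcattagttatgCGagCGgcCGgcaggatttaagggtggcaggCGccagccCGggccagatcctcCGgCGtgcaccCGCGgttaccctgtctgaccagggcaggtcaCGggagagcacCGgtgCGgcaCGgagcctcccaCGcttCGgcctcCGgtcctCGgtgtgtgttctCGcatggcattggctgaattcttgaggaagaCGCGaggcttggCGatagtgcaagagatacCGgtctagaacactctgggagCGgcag
Axin2: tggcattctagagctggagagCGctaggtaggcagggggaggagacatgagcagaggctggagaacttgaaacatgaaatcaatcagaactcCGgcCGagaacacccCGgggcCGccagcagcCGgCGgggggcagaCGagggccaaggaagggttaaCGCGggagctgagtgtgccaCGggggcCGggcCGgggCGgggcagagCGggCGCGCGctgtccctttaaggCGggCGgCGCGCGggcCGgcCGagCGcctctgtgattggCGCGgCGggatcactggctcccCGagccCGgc
Aldh1l1: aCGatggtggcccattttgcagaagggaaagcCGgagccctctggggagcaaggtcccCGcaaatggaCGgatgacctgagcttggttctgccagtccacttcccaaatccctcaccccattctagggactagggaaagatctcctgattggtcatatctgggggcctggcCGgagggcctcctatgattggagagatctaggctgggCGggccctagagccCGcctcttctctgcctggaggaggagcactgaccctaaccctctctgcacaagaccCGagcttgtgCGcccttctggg

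These 300-base stretches held 28, 20 and 21 CpGs at Dusp5, Hoxa3 and Nrarp, and 24, 31 and 9 at Dll1, Axin2 and Aldh1l1. Of 16979 RefSeq promoters on the 16 autosomes, covering 13980 of the 17357 protein-coding genes there, 630 lay within 1 kb of H3K27ac in Setd5+/- cells only, 1145 in wild type only and 5598 in both. The median number of CpGs was 21 at promoters with H3K27ac in Setd5+/- cells only, 21 in wild type only, 22 in both and 5 in neither, against 13 over all promoters. Promoters marked in only 1 genotype thus had a CpG content close to that of promoters marked in both, and far above that of unmarked promoters. The GC box GGGCGG, searched on both strands, was in 65.2% of the Setd5+/- only promoters, 67.3% of the wild-type only promoters, 64.6% of those with the mark in both genotypes and 46.5% of all. The TATA motif TATAAA, also on both strands, was in 4.76% of the Setd5+/- only, 6.64% of the wild-type only and 6.54% of the doubly marked promoters, and in 13.2% of all. A match to either motif is a description of these letters and not a binding site.

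On the 16 autosomes 2737 islands were gained in Setd5+/- cells, 21.7% of the 12585 there, and 4933 were lost, 32.7% of the 15064 in wild type. The gained islands covered 5.05 Mb and the lost islands 7.41 Mb. The genotypes shared 9848 Setd5+/- islands and 10131 wild-type islands, numbers that differ because 1 island in one list can meet several in the other. Joined across the lists, the shared islands made 9398 regions. Of these, 8369 held 1 island of each genotype, 610 held 1 Setd5+/- island over several of wild type, and 333 held several Setd5+/- islands over 1 of wild type. Near the pairing rule, 244 gained islands (8.91%) and 456 lost islands (9.24%) had an island of the other genotype within 600 bp. A further 56 shared Setd5+/- islands (0.569%) and 69 shared wild-type islands (0.681%) owed their pairing to an overlap of at most 200 bp, the width of 1 step of the island grid.

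The 2 libraries differed in read density. Islands of the 16 autosomes held 731248 reads in Setd5+/- cells and 922155 in wild type. The median Setd5+/- island was 2000 bp wide with 41 reads, or 22.5 reads per kb, and the median wild-type island was 1600 bp wide with 46 reads, or 29.6 reads per kb. Over pairs of shared islands the Setd5+/- density was 0.747 times the wild-type density at the median. With reads scaled by that ratio, an island was called within reach when it held at least the 10th percentile of reads of islands of its width in the other library. By this measure 2486 gained islands (90.8%) and 2359 lost islands (47.8%) were within reach of the other library. Counted only over islands within reach, gained islands were 20.7% of the Setd5+/- islands and lost islands 21.9% of the wild-type islands. Among islands within reach gained islands outnumbered lost ones by 127. The part of read density in the larger number of lost islands was not tested. In a culture, fewer cells with a mark and less of the mark in each cell cannot be told apart.

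The shares were alike from chromosome to chromosome, with 3 exceptions that had been set apart by the rule. Among the 16 autosomes gained islands made up from 17.9% (chromosome 7) to 25.6% (chromosome 2) of the Setd5+/- list, and lost islands from 30.7% (chromosome 8) to 36.6% (chromosome 14) of the wild-type list. On chromosome 1 gained islands were 1396 of 2448 Setd5+/- islands (57.0%) and lost islands 167 of 1310 wild-type islands (12.7%). Chromosome 15 had 384 gained of 957 (40.1%) and 142 lost of 753 (18.9%), and chromosome 4 had 425 of 1234 (34.4%) and 355 of 1184 (30.0%). The excess on chromosome 4 lay between 30 and 80 Mb, a stretch already known from the H3K4me3 islands and chosen after those were seen. There 269 of 442 Setd5+/- islands were gained (60.9%) and 48 of 231 wild-type islands were lost (20.8%), whereas on the rest of the chromosome 156 of 792 were gained (19.7%) and 307 of 953 lost (32.2%).

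The 3 chromosomes set apart differed from the others in the kind of island gained. On chromosome 1 the gained islands overlapped H3K4me3 in 29.4% of cases, H3K4me1 alone in 38.0% and neither in 32.5%. The shares were 36.7%, 41.4% and 21.9% on chromosome 15, and 40.5%, 30.6% and 28.9% on chromosome 4. The cause of the difference between these chromosomes and the rest was not tested. All further counts are of the 16 other autosomes unless a chromosome is named.

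**Figure D1:**
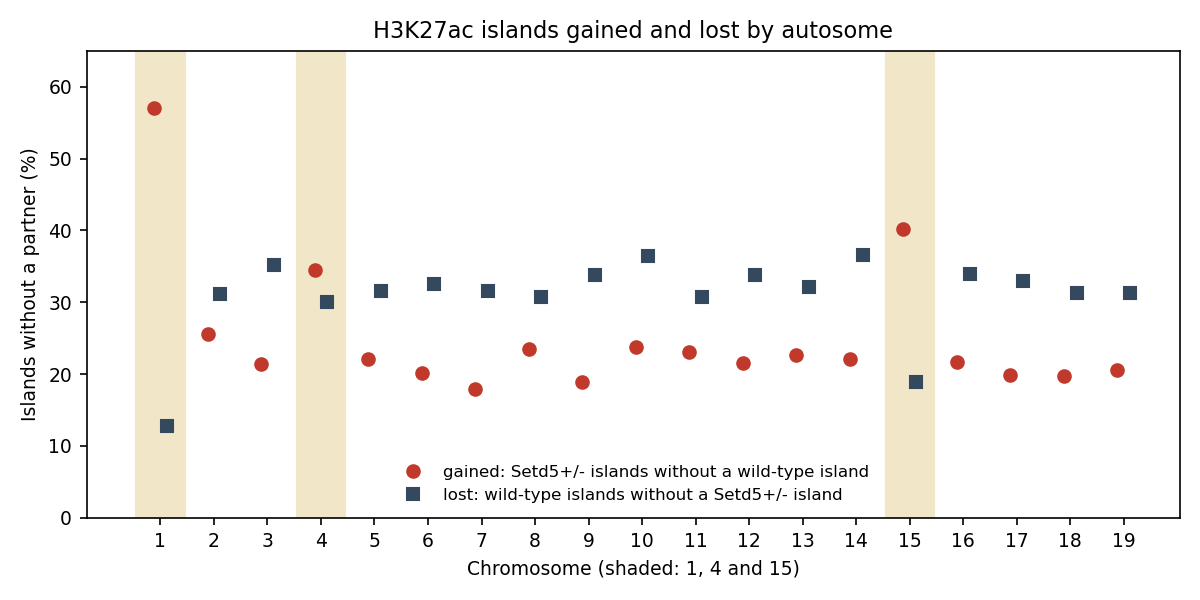
Share of H3K27ac islands without a partner in the other genotype (y axis, percent) on each autosome (x axis), with circles for Setd5+/- islands (gained) and squares for wild-type islands (lost), from 1 library each. Chromosomes 1, 4 and 15 are shaded, and there the circles lie above the squares, as at chromosome 1 with 57.0% gained and 12.7% lost, while on the 16 others they lie below.

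Gained and lost islands had less H3K4me3 than shared ones. An island was classed by the marks of its own genotype: overlapping H3K4me3, overlapping H3K4me1 alone, or neither. Of the gained islands 1350 (49.3%) overlapped H3K4me3, 857 (31.3%) H3K4me1 alone and 530 (19.4%) neither. Of the lost islands 2434 (49.3%) overlapped H3K4me3, 1870 (37.9%) H3K4me1 alone and 629 (12.8%) neither. Shared islands overlapped H3K4me3 in 80.3% of cases in Setd5+/- cells and 76.7% in wild type, and H3K4me1 alone in 16.1% and 22.2%. Read the other way, islands with H3K4me3 were gained in 14.6% and lost in 23.9% of cases, those with H3K4me1 alone in 35.1% and 45.4%, and those with neither in 60.0% and 85.2%. Restricted to islands within reach of the other library, the shares gained and lost were 14.2% and 16.3% with H3K4me3, 34.0% and 34.3% with H3K4me1 alone, and 56.9% and 75.7% with neither. The order of the classes was thus the same in both directions and with or without that restriction.

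**Figure D2:**
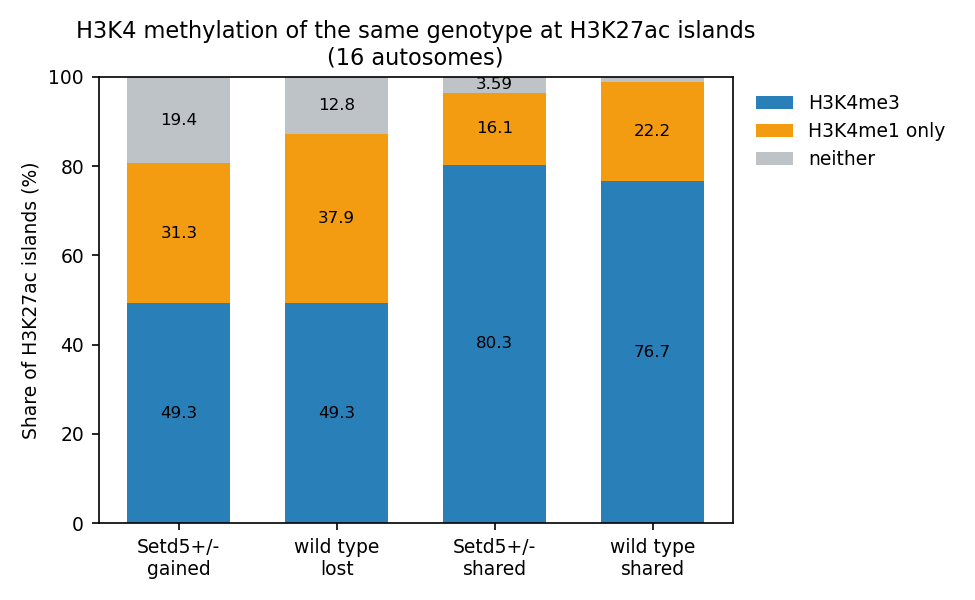
Share of H3K27ac islands (y axis, percent) that overlapped H3K4me3, H3K4me1 alone or neither mark in their own genotype, on the 16 autosomes. Both gained and lost islands had 49.3% with H3K4me3, against 80.3% of shared Setd5+/- and 76.7% of shared wild-type islands.

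The promoter mark itself was mostly present in both genotypes where H3K27ac differed. Of the 1350 gained islands with H3K4me3, 1103 (81.7%) also overlapped H3K4me3 of wild type, and of the 2434 lost islands with H3K4me3, 2274 (93.4%) also overlapped H3K4me3 of Setd5+/- cells. Among shared islands with H3K4me3 the corresponding shares were 93.8% of Setd5+/- and 98.1% of wild-type islands. The read density of the H3K4me3 island under a gained H3K27ac island had a median log2 ratio of Setd5+/- over wild type of 0.05, centred on shared islands, and 57.8% were higher in Setd5+/- cells. Under lost islands that median was −0.02 and 46.7% were higher. The shift in H3K4me3 density thus had the same direction as the H3K27ac difference and was small.

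Islands with H3K4me1 alone, the enhancer state, had neither mark in the other genotype more often when H3K27ac differed than when it was shared. Of the 857 gained islands with H3K4me1 alone, 677 (79.0%) had H3K4me1 alone in wild type too and 157 (18.3%) had neither mark there, against 1.89% of the shared Setd5+/- islands of this class. Of the 1870 lost islands with H3K4me1 alone, 983 (52.6%) had H3K4me1 alone in Setd5+/- cells and 726 (38.8%) had neither, against 13.4% of the shared wild-type islands of this class. Where H3K4me1 islands of both genotypes lay under the H3K27ac island, their density had a centred median log2 ratio of 0.07 under gained islands, with 59.0% higher in Setd5+/- cells. Under lost islands that ratio was 0.01, with 51.6% higher in Setd5+/- cells. The H3K4me1 list itself was shorter in Setd5+/- cells, 32.7 Mb in 16867 islands on the 16 autosomes, against 54.0 Mb in 28729 islands in wild type. The part of this shorter list in the missing H3K4me1 was not tested.

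Islands that differed were also the narrower and sparser ones of their own library. Gained islands had a median width of 1800 bp and 19.5 reads per kb, against 2000 bp and 23.3 reads per kb for shared Setd5+/- islands. Lost islands had a median of 1400 bp and 26.4 reads per kb, against 1800 bp and 31.3 reads per kb for shared wild-type islands. Of islands 5 kb or wider, 10 were gained and 395 of the same library were shared, while 11 were lost and 396 of that library were shared. Islands of 5 kb or wider thus nearly always met an island of the other genotype under the 1 bp rule. A wide island meets a partner more easily under that rule, and the partner can be far smaller. Inside Kcnd3, a shared wild-type island of 407 reads overlapped Setd5+/- islands of 56 and 33 reads.

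**Figure D3:**
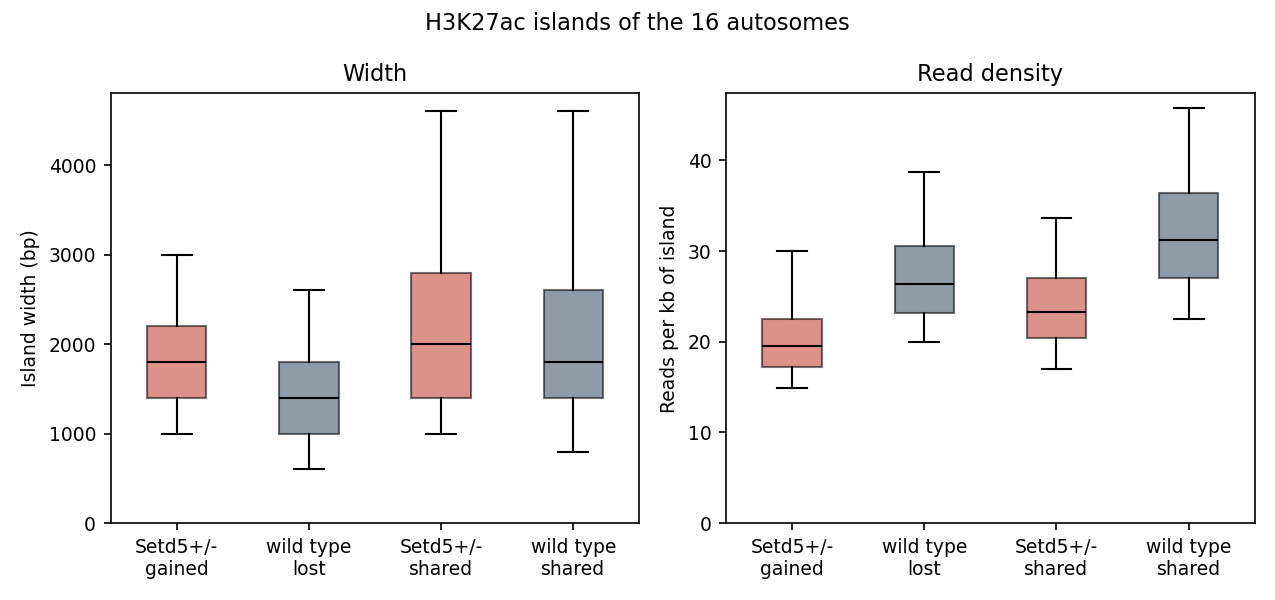
Width in bp (left) and reads per kb (right) of gained, lost and shared H3K27ac islands on the 16 autosomes. Boxes span the quartiles with the median as a line and whiskers reach the 5th and 95th percentiles, and in each library the islands without a partner lie lower, as with median widths of 1800 against 2000 bp in Setd5+/- cells and 1400 against 1800 bp in wild type.

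From the sparsest to the densest quintile of Setd5+/- islands the share gained was 45.6%, 25.4%, 17.3%, 11.1% and 9.30%. In the same order, 59.5%, 39.4%, 30.5% and 19.8% of the wild-type islands of the first 4 quintiles were lost, and in the densest 437 of 3013. Both series decline at every step, and the gained share lies below the lost share in each quintile. By number of reads the decline was steeper, with 39.1% gained in the lowest and 3.38% in the highest quintile, and 56.4% lost in the lowest and 5.58% in the highest.

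**Figure D4:**
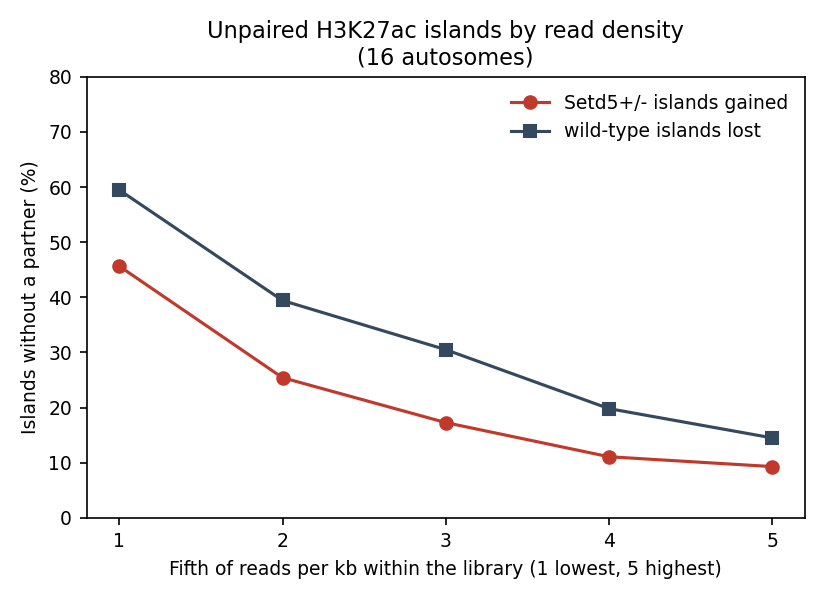
Share of H3K27ac islands without a partner (y axis, percent) by quintile of reads per kb within each library (x axis, 1 the sparsest and 5 the densest), on the 16 autosomes. The gained share in Setd5+/- cells declines to 9.30% in the densest quintile, and the lost share in wild type declines alongside and stays above it.

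Islands called in both genotypes and paired one to one differed little in reads per kb. Such pairs made up 8369 of the 9398 joined regions, and regions with several islands of a genotype were left out. Reads per kb were taken within the edges of each island, so a change in width need not show in them. Over the 8369 one-to-one pairs on the 16 autosomes the log2 ratio of reads per kb, Setd5+/- over wild type and centred on its median, had an SD of 0.33 across islands and ran from −0.53 at the 5th to 0.55 at the 95th percentile. It passed 2-fold upwards in 25 pairs (0.299%) and downwards in 15 (0.179%). Among the 4180 pairs with at least 100 reads in both islands together only 3 passed 2-fold upwards (0.0718%) and 3 downwards (0.0718%). On the same scale chromosome 1 had a median of 0.25 over 884 pairs, of which 14 passed 2-fold upwards (1.58%) and 0 downwards. Chromosome 15 had a median of 0.12 over 471 pairs, with 5 past 2-fold upwards (1.06%) and 0 downwards. Scaled by total island reads in place of the median pair, the medians were 0.16 on chromosome 1 and 0.034 on chromosome 15. On chromosome 4 the median was 0.26 over 154 pairs between 30 and 80 Mb and 0.01 over the other 539. Over the whole of chromosome 4 it was 0.054, and −0.033 when scaled by total island reads. Those totals include the islands of 100 reads per kb or more, which held 12.7% of the Setd5+/- and 1.64% of the wild-type island reads. Scaling without these islands was not tested. Shared islands of chromosome 1 were wider as well, with a median of 2600 bp in Setd5+/- cells and 1800 bp in wild type.

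The pairs that differed most held modest numbers of reads. Among pairs with at least 100 reads together, the highest ratio with a named gene nearest was 1.06 near Fign, which encodes a microtubule-severing AAA protein, with 80 reads in Setd5+/- cells and 42 in wild type. It was 1.00 at Gpm6a, which encodes a neuronal membrane glycoprotein, with 36 and 77 reads over islands of 1000 and 3200 bp. The denser island at Gpm6a was thus the narrower one with fewer reads. The ratio was 0.93 at Prkag2, which encodes a subunit of AMP-activated kinase, with 37 reads in Setd5+/- cells and 78 in wild type. At the low end it was −1.24 near Lrrc4c, with 65 reads in Setd5+/- cells and 277 in wild type, and −1.05 at the tankyrase gene Tnks2, with 33 and 71 reads. At Cenpt, which encodes a centromere protein, it was −1.06 with 58 reads in each genotype, spread over 2800 bp in Setd5+/- cells and 1000 bp in wild type. Width and density thus moved apart in several of these pairs.

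By position, over all classes together, gained and lost islands lay away from gene ends more often than shared ones. Gained islands lay within 1 kb of the end of a coding gene in 26.0% of cases and otherwise inside a gene in 47.4%. Lost islands were at an end in 28.9% and inside a gene in 44.3%. Shared Setd5+/- islands were at an end in 50.6% and inside a gene in 31.5%. Among islands with H3K4me3, 47.3% of gained and 62.0% of shared Setd5+/- islands were at an end. The shares for lost and shared wild-type islands of this class were 54.3% and 64.8%. With H3K4me1 alone they were 5.25% for gained and 4.16% for shared Setd5+/- islands, and 3.74% for lost and 4.17% for shared wild-type ones. With neither mark they were 5.47% and 3.95%, and 5.88% and 4.59%, in the same order. The nearest island of the other genotype was at a median distance of 16.6 kb from a gained island and 20.4 kb from a lost one. It was beyond 100 kb for 325 gained islands (11.9%) and 930 lost islands (18.9%).

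H3K27me3, the Polycomb mark, is a readout that the pairing did not use. Of the 1350 gained islands with H3K4me3, 42 (3.11%) lay over H3K27me3 of wild type and 9 (0.667%) over H3K27me3 of Setd5+/- cells. Of the lost islands with H3K4me3, 31 (1.27%) lay over H3K27me3 of Setd5+/- cells and 18 (0.740%) over that of wild type. Shared islands with H3K4me3 lay over Setd5+/- H3K27me3 in 0.253% and over wild-type H3K27me3 in 0.316% of cases in the Setd5+/- list. Taking all classes, 42 gained islands (1.53%) had H3K27me3 in wild type and none in Setd5+/- cells, a pattern found in 15 shared Setd5+/- islands (0.152%). Lost islands with H3K27me3 in Setd5+/- cells and none in wild type numbered 27 (0.547%), and shared wild-type islands of that pattern 11 (0.109%). The H3K27me3 list of the 16 autosomes covered 27.9 Mb in Setd5+/- cells and 35.2 Mb in wild type, and its part in these counts was not tested.

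Of these 42 gained islands, 9 lay nearest a Hox gene, all in the Hoxa cluster on chromosome 6. Hox genes encode homeodomain factors that give position along the body axis and are held silent by Polycomb in the forebrain. The largest lay over the upstream end of Hoxa3 (chr6:52209001-52214800), with 152 H3K27ac reads and 507 reads of H3K4me3 in Setd5+/- cells, where wild type had neither mark and an H3K27me3 island of 8510 reads. The islands at Hoxa2 (86 reads), Hoxa5 (74 reads) and Hoxa7 (59 reads) likewise lay over H3K27me3 in wild type only. These islands share 1 region and are not separate cases.

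The other 33 gained islands of this pattern held 20 to 63 reads, and 21 of them lay inside a gene or within 1 kb of its end. The first 4 by reads were inside the kinase gene Prkg1 (63 reads), at the homeodomain gene En2 of midbrain and hindbrain (57 reads), at Hmga2, which encodes a chromatin-binding protein of embryonic cells (56 reads), and near the Hox cofactor gene Meis1 (56 reads). At En2 H3K4me3 held 353 reads in Setd5+/- cells and 24 in wild type, and the H3K27me3 island of wild type held 1237 reads. Members named after their values were seen included the homeodomain genes Isl2 (42 reads), Nkx3-2 (32 reads) and Dlx1 (24 reads) and the neurotrophin gene Bdnf with 2 islands (38 and 23 reads). The same pattern was also found near the proteasome gene Psma1 (41 reads), in the choline transporter-like gene Slc44a3 (50 reads), at the zinc finger gene Zfp677 (46 reads) and at the histocompatibility gene H2-D1 (31 reads), which has similar copies that make its reads uncertain. Of the 27 lost islands with H3K27me3 in Setd5+/- cells only, 0 were nearest a Hox gene. Those with most reads inside or at an end of a named gene were at Camk2d, a calcium-dependent kinase gene (107 reads), and Ano3 (61 reads), and the glutamate receptor gene Grin2b had one of 29 reads.

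H3K36me3 and SETD5 itself, also outside the pairing, overlapped a minority of the islands. H3K36me3, which covers transcribed gene bodies, overlapped 13.7% of gained islands in Setd5+/- cells, against 15.3% of shared Setd5+/- islands, and 15.5% of lost islands in wild type, against 23.2% of shared wild-type islands. With H3K4me3 the share was lower than at shared islands in both directions, 6.15% of gained against 13.8% of shared Setd5+/- islands, and 9.08% of lost against 23.2% of shared wild-type islands. With H3K4me1 alone H3K36me3 was found at 154 of 857 gained and 334 of 1587 shared Setd5+/- islands, and at 356 of 1870 lost and 515 of 2252 shared wild-type islands. SETD5, profiled in cells labelled WT-S5V5, overlapped 5.48% of gained, 5.01% of lost, 4.00% of shared Setd5+/- and 4.07% of shared wild-type islands. Among islands with H3K4me3 it overlapped 1.56% of gained and 1.77% of lost islands, against 3.74% and 4.04% of shared Setd5+/- and wild-type islands. Among those with neither H3K4 mark it overlapped 75 of 530 gained islands (14.2%), against 33 of 354 shared Setd5+/- islands (9.32%), and 126 of 629 lost islands, against 11 of 109 shared wild-type islands.

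Counted over genes, H3K27ac lay within 1 kb of either end of 6238 of the 17357 protein-coding genes on the 16 autosomes in Setd5+/- cells and 6767 in wild type, of which 5596 were the same. It was there in only 1 genotype for 1813 genes (10.4%), 642 of them in Setd5+/- cells (3.70%) and 1171 in wild type (6.75%). The annotation gives no strand, so an end can be the start or the finish of a gene, and with the RefSeq starts, which carry a strand, the numbers were 505 and 945. With the end base itself under the island the order turned round, with 1248 genes in Setd5+/- cells only and 1036 in wild type only. A gene can also be counted although its island is shared, where the partner lies farther inside or outside. All islands at the gene were gained for 558 of the 642 genes (86.9%) and lost for 1097 of the 1171 (93.7%).

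Of the 642 genes, 610 had H3K4me3 at an end in Setd5+/- cells and 597 (92.99%) in wild type. Of the 1171 genes, 1121 had it in wild type and 1112 (94.96%) in Setd5+/- cells. Over all 17357 genes H3K4me3 lay at an end of 60.63% in wild type and 58.95% in Setd5+/- cells. Over genes with H3K27ac at an end in both genotypes its share was 99.27% in each. H3K27me3 lay at an end of 23 of the 642 genes (3.58%) in Setd5+/- cells and of 40 (6.23%) in wild type. It lay at an end of 42 of the 1171 genes (3.59%) in Setd5+/- cells and of 31 (2.65%) in wild type. Over all 17357 genes the shares were 6.13% in Setd5+/- cells and 7.73% in wild type, and over genes with H3K27ac at an end in both genotypes 1.07% and 1.57%. On chromosome 1 the genes with H3K27ac were 138 in Setd5+/- cells only (11.5%) and 8 in wild type only (0.664%), and on chromosome 15 they were 76 (9.79%) and 13 (1.68%), while chromosome 4 had 75 (5.65%) and 98 (7.38%).

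Markers of cortical neural stem cells carried H3K27ac in both genotypes. Of 10 such genes 8 had H3K27ac at an end in Setd5+/- cells and 9 in wild type. Pax6 had none at an end in either, although islands lay nearer to it than to other genes, 1 in Setd5+/- cells and 4 in wild type. The largest island at Sox2, a stem cell factor, held 545 reads in Setd5+/- cells and 1083 in wild type, at Fabp7, a radial glial lipid carrier, 220 and 344, and at the Notch target Hes1 128 and 92. Among neuronal markers only Map2, on chromosome 1, carried an island at an end, in both genotypes. Markers of other cells, 3 of oligodendrocytes, 6 of microglia, 5 of endothelium and 4 of mesenchyme, had 0 in either genotype.

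The Notch pathway passes signals between neighbouring cells through cleavage of the receptor, and it keeps neural stem cells undifferentiated. Of its 24 listed genes 3 had an end marked by H3K27ac in Setd5+/- cells only, and 2 in wild type only, where the shares of all genes were 3.70% and 6.75%. Counts this small, here and in the lists that follow, say little about a list as a whole. Setd5+/- cells alone had islands at Maml3, a coactivator of the Notch transcription complex (43 reads), at the feedback inhibitor Nrarp (34 reads) and at Rfng, a glycosyltransferase of Notch receptors (24 reads). Wild type alone had them at the ligand gene Dll1 (162 reads over 4.2 kb) and the receptor gene Notch4 (48 reads). At Dll1 the H3K4me3 island was present in both genotypes, with 845 reads in Setd5+/- cells and 1043 in wild type, while H3K4me1 held 73 and 238 reads. The wild-type island at Dll1 was not lost by the pairing rule, since a Setd5+/- island of 32 reads overlapped it farther from the gene end. The other 4 islands had no partner. The shared islands nearest its genes had a median log2 ratio of 0.03 over 30 pairs, against 0 over all pairs, so the list as a whole lay at the centre.

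Wnt and BMP signalling counted 2 genes of 30 in Setd5+/- cells only and 6 in wild type only, beside the 3.70% and 6.75% of all genes. Those of Setd5+/- cells were Id1, an inhibitor of bHLH factors induced by BMP (61 reads), and the Wnt receptor gene Fzd1 (28 reads). Those of wild type were the ligand gene Bmp7 (93 reads), the Wnt feedback gene Axin2 (77 reads), the receptor genes Bmpr1b (40 reads) and Fzd8 (29 reads), the Wnt effector gene Tcf7l2 (23 reads) and the inhibitory Smad gene Smad7 (21 reads). All 8 genes had H3K4me3 in both genotypes. Their islands had no partner in the other genotype. Islands still lay nearest Axin2 in both genotypes, as 5 of the 8 islands nearest the gene in Setd5+/- cells were gained and 2 of the 4 in wild type were lost.

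In the list of FGF and EGF signalling, whose ligands were in the medium, 1 gene of 28 was marked in Setd5+/- cells only. In wild type only there were 2, where the shares of all genes were 3.70% and 6.75%. The gene of Setd5+/- cells was Dusp5, a phosphatase of ERK, with 150 reads over 6.8 kb, overlapping a wild-type island of 32 reads that did not reach the gene end. H3K4me3 there held 639 reads in Setd5+/- cells and 367 in wild type. The genes of wild type were Hras (27 reads) and Erbb2 (26 reads), with lost islands. The EGF receptor gene Egfr had H3K27ac at an end in both, with 106 reads in Setd5+/- cells and 185 in wild type.

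Of the chromatin regulators, 4 Polycomb and Trithorax genes of 25 were marked in Setd5+/- cells only and 2 in wild type only. Over all genes the shares were 3.70% and 6.75%. Those of Setd5+/- cells were Kdm6b, a demethylase of H3K27me3 (82 reads), Pcgf2 (57 reads) and Cbx8 (41 reads), both subunits of Polycomb repressive complexes, and Wdr5, a shared subunit of H3K4 methyltransferases (27 reads). The genes of wild type were Kmt2c, an H3K4 methyltransferase of enhancers (63 reads), and Ring1, through the lost island of 124 reads at its neighbour H2-Ke6. The islands at Kdm6b and Pcgf2 overlapped wild-type islands of 63 and 36 reads, and those at Kmt2c overlapped Setd5+/- islands with 62 reads in all, so these 3 genes differed in where the island ended. The islands at Cbx8 and Wdr5 were gained. Among enzymes and readers of histone acetylation, 1 gene of 30 was marked in Setd5+/- cells only, the deacetylase gene Sirt6 (35 reads). Those of wild type were Tbl1xr1, a subunit of the NCoR-HDAC3 corepressor, with islands of 104 and 51 reads but marked in both genotypes at its RefSeq start, and the acetyltransferase gene Kat6b (61 reads). The larger island at Tbl1xr1 overlapped a Setd5+/- island of 83 reads, while its smaller one and the island at Kat6b were lost.

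Glial genes gave 3 of 21 in Setd5+/- cells only and 2 in wild type only, beside 3.70% and 6.75% of all genes. In Setd5+/- cells these were Cnp, a myelin enzyme (61 reads in its larger island), the oligodendrocyte and ventral midline factor Nkx2-2 (35 reads at its end) and the calcium-binding protein gene S100b (28 reads). In wild type they were the lipid carrier gene Apoe (124 reads), which was marked in both genotypes at its RefSeq start, and the astrocyte enzyme gene Aldh1l1 (82 reads). The island at Apoe overlapped a Setd5+/- island of 38 reads, and the others had no partner. At Aldh1l1 the H3K4me3 at the end, of 224 reads, was in wild type only as well. Of the stem cell and radial glia list, 2 of 21 were marked in Setd5+/- cells only, Nr2f1 (43 reads) and the cadherin gene Cdh2 (36 reads), and 1 in wild type only, Lhx2 (25 reads). The island at Nr2f1 and 1 of the 2 at Cdh2 met wild-type islands, of 33 and 41 reads, and the one at Lhx2 was lost.

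Hox genes counted 6 of 30 in Setd5+/- cells only and 0 in wild type only, and 10 of the 14 Setd5+/- islands nearest them were gained. Of all genes 3.70% were marked in Setd5+/- cells only and 6.75% in wild type only, and of all Setd5+/- islands 21.7% were gained. All 6 were in the Hoxa cluster, from Hoxa2 to Hoxa7. Midbrain, hindbrain and spinal factors counted 2 of 16 and 0, from En2 and Nkx2-2. Ribosomal protein genes counted 1 of 26 in Setd5+/- cells only and 3 in wild type only, with a median log2 ratio of shared islands of −0.11 over 30 pairs. Cell cycle genes counted 1 of 28 (Ccnb2, a mitotic cyclin, 47 reads) and 0. The neuronal list of 21 had Dlg4 in Setd5+/- cells only (37 reads, over a wild-type island of 54 reads) and Mapt in wild type only (25 reads). The proneural list of 16 had Tcf4 in wild type only (115 reads, over a Setd5+/- island of 55 reads), and the immediate early list of 17 had Nr4a2 (31 reads). The lists of ventral telencephalon (18 genes), microglia and blood (14), endothelium and mesenchyme (14) and non-neural lineages (18) had 0 in either direction.

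Several of these calls end when a gene is read at its RefSeq start in place of either end. Of 21 listed genes marked in Setd5+/- cells only that have such a start, 17 were marked in Setd5+/- cells only there, Nr2f1, Dlg4 and Rpl19 were marked in both genotypes, and Pcgf2 in neither. Of 18 listed genes marked in wild type only, 11 were marked in wild type only at the start, and Notch4 in neither. The other 6, Apoe, Tbl1xr1, Kmt2c, Bmpr1b, Tcf7l2 and Rpl18, were marked in both genotypes at the start.

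On the chromosomes set apart, listed genes marked in only 1 genotype lay on chromosomes 1 and 4. Over all genes of chromosome 1, 138 (11.5%) were marked in Setd5+/- cells only and 8 (0.664%) in wild type only. Over all genes of chromosome 4 these numbers were 75 (5.65%) and 98 (7.38%). The listed genes of chromosome 1 were all marked in Setd5+/- cells only. On chromosome 1 these were the H3K4 demethylase gene Kdm5b (58 reads), the Wnt receptor gene Fzd5 (48 reads), the replication licensing gene Mcm6 (67 reads), the deacetylase gene Hdac4 (53 reads) and the homeodomain gene En1 (41 reads), where H3K27me3 lay in wild type only. At the RefSeq start of Hdac4 both genotypes were marked. On chromosome 4 the glial factor gene Nfia (28 reads) was marked in Setd5+/- cells only, though in both genotypes at its RefSeq start, and the cyclin gene Ccne2 (45 reads) in wild type only.

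Among gained islands with H3K4me3, the one with most reads spanned 13.4 kb (chr3:34558201-34571600), 78.4 kb from Sox2 and 76.4 kb from the nearest wild-type island, and held 400 reads (95% exact Poisson interval 362 to 441, which covers counting error only). H3K4me3 over it held 963 reads in Setd5+/- cells and 86 in wild type. Wild type thus had some H3K4me3 there and no H3K27ac island. An island inside Nkx2-2 held 89 reads, with 771 reads of H3K4me3 in Setd5+/- cells and 105 in wild type. Others were near Zswim4 (116 reads), near E2f6, which encodes a repressor of the E2F family (118 reads), and inside the cGMP-dependent kinase gene Prkg1 (99 reads). On chromosome 4 a gained island of 106 reads lay at the cell cycle inhibitor locus Cdkn2a, 0.6 kb from the nearest wild-type H3K27ac island. H3K27me3 there held 1906 reads in wild type and had no island in Setd5+/- cells. H3K4me3 held 1211 reads in Setd5+/- cells and 368 in wild type. On chromosome 1 the largest was at Aida (533 reads).

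Very dense islands made up much of the reads of gained islands with H3K4me1 alone. The first 6 by reads held 53008, 15162, 5226, 2925, 2630 and 1050 reads at 123 to 4355 reads per kb. Of the 8 gained islands with 100 reads per kb or more, all lay over H3K4me1 of Setd5+/- cells and 0 over H3K4me1 of wild type, with 51490 H3K4me1 reads under the first. The same places were also in other lists, as 4 of the 8 lay over H3K36me3 of wild type and 6 over SETD5 of WT-S5V5 cells. Under the first of them H3K36me3 of wild type held 56724 reads and SETD5 78138. No difference in the mark is read from these islands. In all, 13 Setd5+/- and 5 wild-type islands had 100 reads per kb or more, and they held 12.7% and 1.64% of the island reads. Without them gained islands held 15.3% of the Setd5+/- reads and lost islands 21.5% of the wild-type reads, against 24.4% and 21.2% with them. Below 50 reads per kb, a limit set after the values were seen, the gained islands with most reads were near Pisd (112 reads) and Tox2 (103 reads), and inside Tpd52 (86 reads), Olfml2a (84 reads) and the polycystin gene Pkd1 (83 reads).

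Among lost islands with H3K4me3 and most reads, one lay beside a regulator of brain development. This island of 186 reads (95% exact Poisson interval 160 to 215) lay 4.26 kb from Zic1, a zinc finger factor of the dorsal neural tube (chr9:91349401-91353800), with H3K4me3 of 106 reads in Setd5+/- cells and 432 in wild type. A Setd5+/- H3K27ac island lay 2.4 kb from it. Further ones were inside Lsamp, a neural adhesion gene (154 reads), inside Tacc2, a centrosomal coiled-coil gene (149 reads), and at Lratd1 (146 reads). The first by reads, 223, was at the pheromone receptor gene Vmn2r22, a gene of a large family with near-identical copies whose reads are uncertain.

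Of the lost islands with H3K4me1 alone 61.8% lay inside a gene and away from its ends. The share was the same, 61.8%, for shared wild-type islands of this class, and 66.2% for gained ones. The largest lost one was in Cdk19, a kinase of the Mediator complex (182 reads over 5.8 kb). H3K4me1 there held 109 reads in Setd5+/- cells and 219 in wild type. Others were in Exoc4, an exocyst subunit gene (168 reads), Kcnd3 (157 reads), Me3, which encodes a mitochondrial malic enzyme (150 reads), the BMP receptor gene Bmpr1b (133 reads), the neural zinc finger gene Myt1 (131 reads) and the endocytic adaptor gene Epn2 (116 reads). The nearest Setd5+/- island was 1.2 kb away at Epn2, 1.6 kb at Exoc4, 3.4 kb at Myt1 and 10.8 to 51 kb at the rest of these genes. The island in Epn2 was not within reach of the Setd5+/- library. On chromosome 4 an island of 179 reads in Sh3gl2, which encodes an endophilin, was 1310 kb from the nearest Setd5+/- island.

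Several genes held groups of lost or gained islands. Kcnd3, which encodes a voltage-gated potassium channel (chromosome 3, 105451890 to 105674002), was nearest to 5 Setd5+/- islands covering 12.2 kb with 250 reads and to 22 wild-type islands covering 64.6 kb with 1887 reads, and 18 of the 22 were lost. Its start, with 25 CpGs in the RefSeq promoter, lay within 1 kb of H3K27ac in wild type only. Just past that limit, 1.11 kb inside the gene, a Setd5+/- island of 33 reads and a wild-type island of 127 reads both began. Exoc4 had 7 Setd5+/- and 21 wild-type islands, 11 of them lost, and Xylt1, a glycosyltransferase of proteoglycan synthesis, had 12 and 24, also with 11 lost. The bicarbonate transporter gene Slc4a4 had 10 and 19 with 9 lost, Epn2 7 and 14 with 9 lost, and the EGF receptor gene Egfr 10 and 18 with 11 lost. In none of Kcnd3, Exoc4, Xylt1, Slc4a4 and Epn2 was an island gained. In the other direction Rfx3, a factor of ciliary genes, had 11 Setd5+/- and 3 wild-type islands with 6 gained, the kinase gene Src 8 and 3 with 5 gained, and the prohormone carboxypeptidase gene Cpe 10 and 5 with 5 gained. At Npas3, a bHLH-PAS factor of the developing brain, gains and losses stood side by side, with 25 gained among 65 Setd5+/- islands and 19 lost among 63 wild-type islands.

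In windows of 100 kb the covered length was higher in Setd5+/- cells in 3172 of 7503 windows with any island and lower in 4015. It was at least 10 kb longer in 23 windows and at least 10 kb shorter in 32. The windows with most length less in Setd5+/- cells were at Kcnd3, with 8.4 kb in Setd5+/- cells and 35.4 kb in wild type, and at Epn2 and B9d1, with 20.2 and 47.2 kb. At Myt1 and Oprl1 the lengths were 4.4 and 25 kb. Outside the densest islands, the windows with most length more in Setd5+/- cells were at Npas3, with 22.4 kb in Setd5+/- cells and 2.6 kb in wild type, and in a window without protein-coding genes beside Sox2, with 16.8 and 0 kb.

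**Figure D5:**
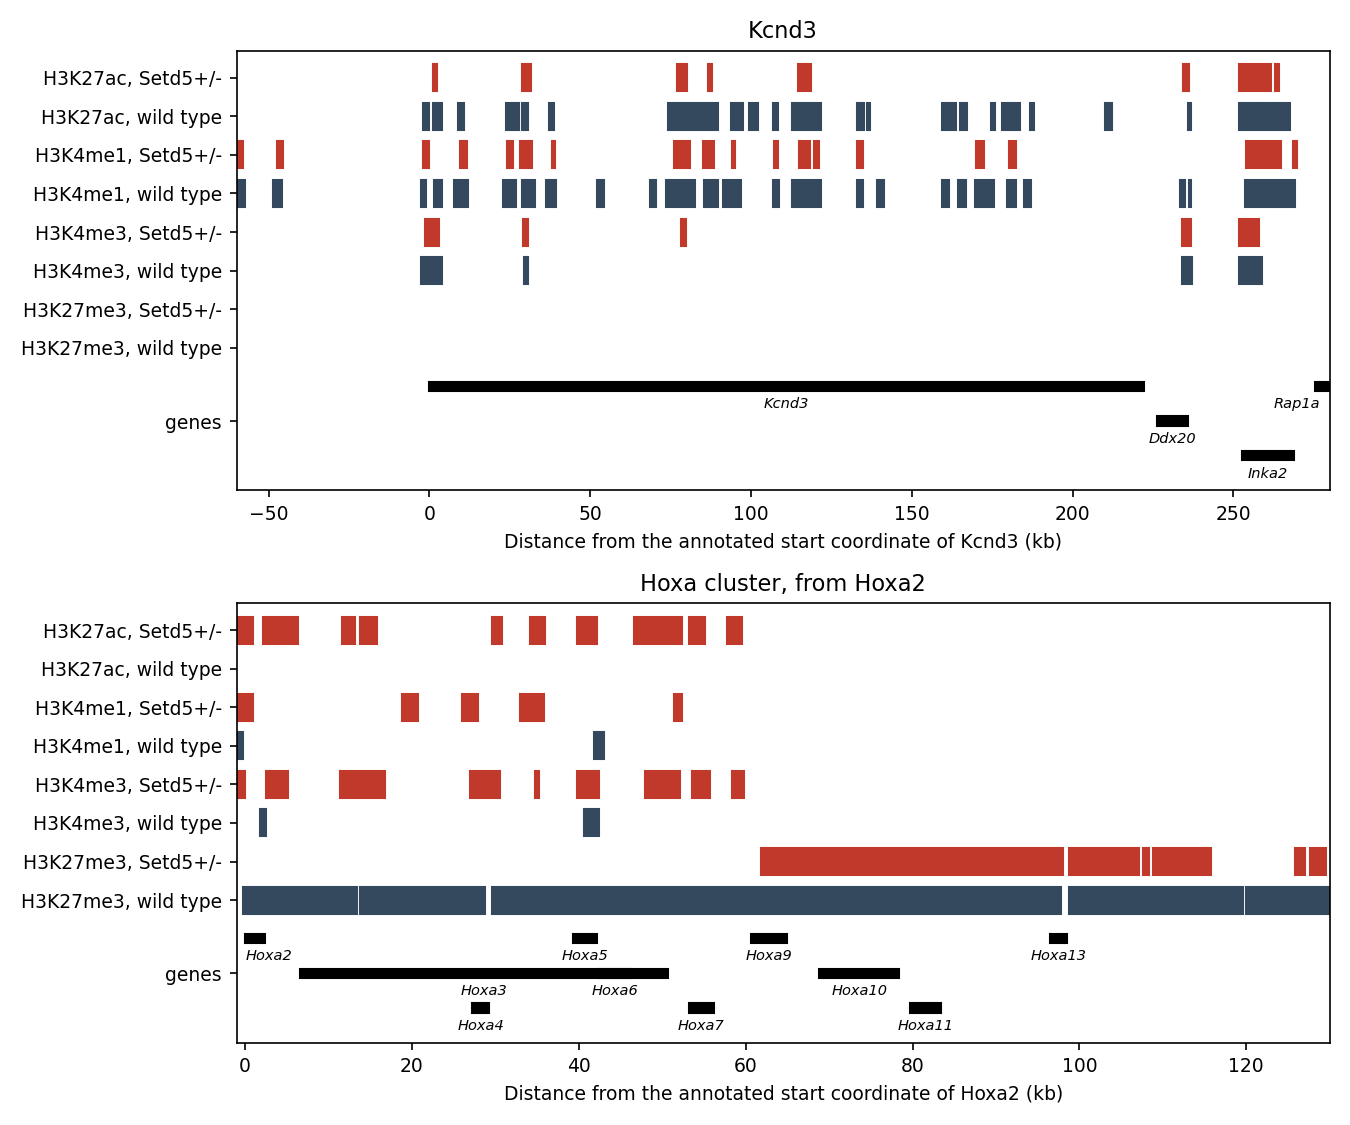
Islands of 4 histone marks in Setd5+/- cells (red) and wild type (dark blue) over Kcnd3 and the Hoxa cluster from Hoxa2 on, with protein-coding genes in black. The x axis is the distance in kb from the annotated start coordinate of Kcnd3 or Hoxa2, and Kcnd3 was nearest to 5 Setd5+/- and 22 wild-type H3K27ac islands, while over Hoxa3 to Hoxa7 H3K27ac lies in Setd5+/- cells and H3K27me3 in wild type.

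At Setd5 itself, on chromosome 6, the largest H3K27ac island was shared, with 183 reads over 7200 bp in Setd5+/- cells and 181 reads over 5000 bp in wild type. The other Setd5+/- islands, of 47 and 63 reads, were shared as well. A wild-type island of 41 reads (chr6:113085801-113087600), with H3K4me1 alone, was lost. The genotype could not be checked from these islands, since the mutated stretch is not given in the sources used here.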

How the data were processed

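Chromatin immunoprecipitation and sequencing libraries of Setd5+/- and wild-type neural stem cells were used as the authors' deposited lists of islands, 1 list per mark and genotype. The submitters' processing notes name FastQC, Bowtie2 2.2.3, SICER 1.1 and GRCm38 (mm10). The deposited lists carry no header, and their last column, whole numbers per island, was taken as the authors' counts of reads. Window, gap and false discovery rate of the H3K27ac lists, and total reads per library, are not stated in the labels, and the 3 inputs are not analysed here. Island reads on the 16 autosomes numbered 731248 in Setd5+/- cells and 922155 in wild type, and depth outside islands is unknown. Intervals cover counting error only, because no molecular identifiers separate PCR copies.

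Islands were paired by 1 bp overlap, and density ratios of one-to-one pairs were centred on the median of the 16 autosomes. Genes were protein-coding genes of RefSeq GRCm38.p6. Named genes were those nearest the islands with most reads by direction and class, predicted genes passed over, the extreme shared pairs, and list members marked in only 1 genotype. Some genes that this rule names are not reported here. Groups of islands and 100-kb windows were ranked after the data were seen. The members, the 18 gene lists and the chromosomes set apart were chosen with earlier results of these data known. Python 3.11.15, numpy 2.4.6, pandas 2.3.3, scipy 1.17.1 and matplotlib 3.10.9 were used, and the pairing was tested on simulated lists. The alternatives were another overlap, stricter islands, equal covered length, islands within reach, other class and gene-end rules, and other scalings.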

Additional observations from a re-analysis of the deposited data

How the results depend on the processing

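Of 84 values recomputed under the alternatives, 46 were held to be the same. A count had to stay within 1.5 times the reported one, and a share or median within the interval of the reported value. A difference between counts had only to keep its sign. With 50% reciprocal overlap, gained and lost islands numbered 5028 and 7507. With the sparsest 25% of islands left out but partners sought in the full lists they numbered 1450 and 2870. Only islands within reach gave 2359 lost islands and reversed the difference, gained minus lost, to 127. All 19 autosomes gave 4942 gained islands. H3K4me3 shares of gained, lost and shared wild-type islands were 44.1%, 44.7% and 70.0% with the mark over 50% of the island, and 64.4%, 61.7% and 83.3% with stricter islands. With marks of either genotype those of lost and shared wild-type islands were 52.9% and 81.6%, and over 19 autosomes those of gained and shared wild-type islands were 42.0% and 75.7%. Shares with H3K4me1 alone, for gained and shared wild-type islands, were 29.2% and 26.8% with the mark over 50% of the island, and 33.9% and 23.1% over 19 autosomes. For gained, lost and shared wild-type islands they were 38.9%, 35.9% and 17.9% with marks of either genotype, and 25.4%, 32.5% and 16.2% with stricter islands. Means in place of medians were 1846 bp and 25.0 reads per kb for gained, 1503 bp and 27.6 for lost, and 2161 bp and 32.3 for shared wild-type islands. Scaled by total island reads, the density ratios of shared islands were 0.16 on chromosome 1, 0.034 on chromosome 15 and, reversed, −0.033 on chromosome 4. Those totals include the islands of 100 reads per kb or more, with 12.7% of the Setd5+/- and 1.64% of the wild-type island reads. With an island over the end base itself, 1248 genes were marked in Setd5+/- cells only, and the difference to wild type only reversed to 212. The causes were not tested.

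No paired analysis was possible because each genotype has 1 library and no test was run. Without replicates the spread between cultures is unknown, and at single islands near the calling threshold a difference in the mark and a difference in depth cannot be told apart.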
